A study of Mus musculus with 8 samples.

Results

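The Slc22 genes encode membrane transporters that carry organic anions, organic cations and zwitterions such as carnitine. The 9 members described here are Slc22a6, Slc22a8, Slc22a7, Slc22a30, Slc22a12, Slc22a13, Slc22a2, Slc22a4 and Slc22a5, of 21 Slc22 genes and 18193 genes measured. They were matched by gene symbol to Affymetrix probe sets, and where several probe sets name a gene the brightest one was used. The members were chosen with their differences between ischemic and normal arrays already known, so those differences are given as a description and not as a test.

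Gene expression was measured in GFP-positive cells sorted from digested kidneys of male FSP1-eGFP mice on a C57BL/6 background, 6 months old. FSP1 (S100a4) is a gene whose promoter is often used to label fibroblasts, although other cells, macrophages among them, also express it. The ischemic group, with 5 arrays, came from kidneys in which both renal vessels on the left had been clamped for 45 minutes, 3 days before collection. The normal group, with 3 arrays, came from non-ischemic kidneys of mice with the same transgene. Its titles read normal while its source names read sham, and the labels describe buprenorphine for pain after the surgery. Both groups thus carried the reporter, and every array reports RNA of a sorted fraction of the kidney and not of whole tissue. The labels do not tie each array to a mouse of its own, so p-values measure only the spread between these arrays, which may be technical.

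In the proximal tubule, organic anions are taken up from the blood across the basolateral membrane by Slc22a6 (OAT1) and Slc22a8 (OAT3), in exchange for dicarboxylates. Organic cations enter through Slc22a2 (OCT2), and efflux transporters of the brush border then pass both kinds of solute into the urine. Slc22a12 (URAT1) works in the other direction and returns urate from the filtrate, and Slc22a5 (OCTN2) recovers carnitine with sodium. Of these genes, Slc22a6, Slc22a8, Slc22a2 and Slc22a12 are known as markers of differentiated proximal tubule cells rather than of fibroblasts.

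Values are log2(intensity + 16) after quantile normalization, so a deposited intensity of 1 becomes 4.09, and differences are ischemic minus normal on this scale, which understates changes of dim genes. The arrays differed in ways the labels do not give. The X-inactivation transcript Xist was at 9.39 to 11.19 in ischemic 1, ischemic 2 and normal 1, and at 4.49 to 4.96 in the other 5 arrays, although all mice are labelled male. The Y-linked gene Eif2s3y was at 5.84 in both ischemic 1 and normal 1 and between 7.68 and 8.87 elsewhere, so ischemic 2 carried both signals. Ischemic 1 stood apart, with a median correlation across genes of 0.752 with the other arrays, and ischemic 5 was closest to normal 3 (0.976). S100a4 was bright throughout, at 11.52 to 12.23 in ischemic and 11.30 to 11.94 in normal arrays. The fibroblast and pericyte markers ranged widely. Vim was at 11.65 to 12.45 in ischemic and 10.66 to 12.40 in normal arrays, Col1a1 at 5.85 to 8.40 in ischemic and 4.54 to 7.22 in normal arrays, and Lum close to the floor (4.18 to 4.79 in ischemic and 4.36 to 4.57 in normal).

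The 250 bases before the annotated start of 4 members are shown because 3 of these genes, Slc22a6, Slc22a8 and Slc22a30, are consecutive protein-coding genes on chromosome 19, while Slc22a5, on chromosome 11, has a start region of another base composition. All 4 had every ischemic array below every normal array. Sequences are from RefSeq, build GRCm38.p6, 5′ to 3′ on the gene's strand. They lie at chr19:8617746-8617995 (plus strand, Slc22a6), chr19:8592932-8593181 (plus strand, Slc22a8), chr19:8405106-8405355 (minus strand, Slc22a30) and chr11:53891704-53891953 (minus strand, Slc22a5). Capitals, in Slc22a30 only, mark a match, with 1 mismatch, to letters bound by HNF4, a nuclear receptor of the proximal tubule.
Slc22a6: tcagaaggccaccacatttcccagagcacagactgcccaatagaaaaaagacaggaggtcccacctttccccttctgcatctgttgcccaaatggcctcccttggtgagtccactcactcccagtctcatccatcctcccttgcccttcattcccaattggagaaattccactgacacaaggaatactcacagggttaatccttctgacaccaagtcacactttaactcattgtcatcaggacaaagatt
Slc22a8: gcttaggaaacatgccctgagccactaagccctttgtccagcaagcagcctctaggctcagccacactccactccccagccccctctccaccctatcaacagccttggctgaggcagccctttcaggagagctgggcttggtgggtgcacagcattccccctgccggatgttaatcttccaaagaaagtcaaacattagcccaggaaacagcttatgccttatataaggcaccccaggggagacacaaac
Slc22a30: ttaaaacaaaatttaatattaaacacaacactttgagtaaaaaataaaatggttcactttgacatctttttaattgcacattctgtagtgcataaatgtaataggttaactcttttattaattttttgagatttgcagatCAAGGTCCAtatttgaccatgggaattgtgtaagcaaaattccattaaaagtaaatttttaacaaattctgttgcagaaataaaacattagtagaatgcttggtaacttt
Slc22a5: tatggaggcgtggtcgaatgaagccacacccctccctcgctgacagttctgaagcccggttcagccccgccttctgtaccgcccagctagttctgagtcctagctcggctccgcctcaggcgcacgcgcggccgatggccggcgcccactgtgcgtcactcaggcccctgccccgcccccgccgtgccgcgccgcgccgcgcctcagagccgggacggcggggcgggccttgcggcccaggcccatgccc

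Windows were searched for the HNF4 letters CAAAGTCCA, on both strands and with up to 1 mismatch. Promoter windows of 300 bases (250 before and 50 after the start) were in the table for 8 of the 9 members. Slc22a30 alone among these 8 held a match, as did 8.47% of all 32851 windows and 6 of 15 windows of other Slc22 genes. A match describes letters and is not a shown binding site, and no match says only that these letters are not in the window.

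Base composition set some members apart. The windows of Slc22a5 and Slc22a4 had 72.7% and 69.0% G or C, with 34 and 29 CG pairs, against medians of 52.7% and 7 over all windows. Those of Slc22a6, Slc22a8, Slc22a12, Slc22a13 and Slc22a2 had between 47.7% and 55.0% G or C, with 0 to 8 CG pairs. Slc22a30 was among the poorest, at 27.7% with 0 CG pairs, and 0.381% of windows were lower.

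All 9 members had a lower mean in ischemic than in normal arrays, where 45.2% of all genes had a negative difference. In 6 of the 9 (Slc22a2, Slc22a5, Slc22a6, Slc22a8, Slc22a12 and Slc22a30) every ischemic array was below every normal array, which held for 3.42% of all genes. The opposite order held for 0 of the 9 and for 1.89% of all genes, and either order for 5.3%. In the limma fit over all genes, 0 of the 9 passed an adjusted p of 0.05, as did 0% of the 18193 genes, and 6 of the 9 had an unadjusted p under 0.05 with a lower mean, as did 5.01% of all genes (2.11% had such a p with a higher mean). These counts describe how the members were chosen, and nothing is read from them. The median of the 9 differences was −2.49, beside 0.041 over all genes. The fit depended on the scaling and on the arrays used. With arrays centred on ribosomal protein genes 174 of the 18193 genes passed, 5 of the 9 members among them. Without normal 3, 112 of the 18193 genes passed, 2 of the 9 members among them. The members were chosen with this contrast known, so nothing is read from these counts either. In such sorted fractions fewer cells of a type and less RNA per cell cannot be told apart.

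Slc22a6, the basolateral exchanger that takes up p-aminohippurate and many drugs, had the largest difference of the 9 in the fit as reported. Slc22a8 was larger without normal 2, without normal 3, with a pseudocount of 1 and in the arrays of high Xist signal. Slc22a2 was larger without normal 2, with a pseudocount of 1, with averaged probe sets and with array weights. Slc22a12 was larger without ischemic 4, with the replicate number as a block and in the arrays of high Xist signal. The values of Slc22a6 were 5.34, 7.58, 7.20, 4.59 and 6.44 in ischemic arrays, against 10.24, 10.71 and 9.18 in normal arrays. The lowest normal array was 1.60 above the highest ischemic one. The deposited intensities behind these values, before normalization, were 30.0, 158, 135, 7.16 and 76.4 in ischemic and 1366, 1929 and 607 in normal arrays. Ischemic arrays averaged 6.23 ± 1.25 (SD, n = 5), against 10.04 ± 0.79 (SD, n = 3) for normal ones, a difference of −3.81 ± 0.71 (SE), with −4.32 at a pseudocount of 1 and −3.07 at 64. Ischemic 4 was the lowest array and ischemic 2 the highest of its group.

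Slc22a8, which shares many substrates with Slc22a6, was at 5.05, 6.41, 5.73, 4.28 and 5.39 in ischemic arrays, against 10.79, 9.01 and 7.31 in normal arrays. Its difference was −3.67 ± 0.75 (SE). The normal arrays spread over more than 3 log2 units, so the gap between the groups was smaller than for Slc22a6, at 0.90. Without normal 1 the difference was −2.79, and without normal 3 it was −4.53. Both genes had their lowest value in ischemic 4 and their highest ischemic value in ischemic 2.

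Slc22a7 (OAT2), another organic anion transporter, gave a different picture. It was at 4.58, 4.10, 4.14, 4.42 and 4.63 in ischemic arrays, against 7.56, 4.46 and 4.95 in normal arrays. Normal 1 alone stood clear of the floor, and normal 2 lay within the ischemic range. The difference of −1.28 ± 0.63 (SE) was −0.33 without normal 1. That array is also the normal array with high Xist signal, and the part of that in the result was not tested.

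Slc22a30, a mouse gene of the organic anion transporter branch, had a small spread within each group. Ischemic arrays were at 4.63, 4.49, 4.52, 4.26 and 4.33, close to the floor, against 7.10, 6.29 and 6.63 in normal arrays. The deposited intensities were 13.1, 5.94, 6.56, 2.87 and 3.89 in ischemic and 121, 62.9 and 93.4 in normal arrays. The difference was −2.23 ± 0.24 (SE), with a gap of 1.65 between the groups. It depended on the pseudocount, with −3.73 at a pseudocount of 1 and −1.11 at 64.

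Slc22a12, the urate transporter of the brush border, was at 4.97, 8.39, 7.34, 7.32 and 6.67 in ischemic arrays, against 11.10, 10.47 and 9.42 in normal arrays. The groups were 1.03 apart and differed by −3.39 ± 0.72 (SE). In this probe set ischemic 1 was the lowest array by a wide margin, unlike Slc22a6 and Slc22a8, and without ischemic 1 the difference was −2.90. In a dimmer probe set of Slc22a12, ischemic 1 was instead the highest ischemic array, at 6.93 against 5.12 to 6.22.

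Slc22a13 (OAT10), known in humans as an exchanger of nicotinate and urate, was the member with the smallest difference over the 8 arrays, although Slc22a4 was smaller in the 5 arrays of low Xist signal. Slc22a13 had values of 7.17, 6.73, 6.01, 6.50 and 5.66 in ischemic arrays, against 8.15, 6.28 and 6.46 in normal arrays. Normal 2 and normal 3 lay among the ischemic arrays. The difference of −0.55 ± 0.50 (SE) was 0.044 without normal 1, −0.36 without ischemic 5 and −0.89 without normal 2, so its sign rested on normal 1.

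Slc22a2, the basolateral organic cation transporter, was at 6.00, 7.26, 5.36, 4.09 and 5.20 in ischemic arrays, against 10.19, 8.60 and 8.36 in normal arrays. The groups were 1.09 apart, and the difference was −3.46 ± 0.70 (SE). Ischemic 4 was at the floor, with a deposited intensity of 1, against 1321 in normal 1. The difference depended on the pseudocount, with −4.42 at 1 and −2.51 at 64.

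Slc22a5, the sodium-coupled carnitine transporter, was at 4.81, 5.57, 6.41, 4.76 and 6.77 in ischemic arrays, against 8.40, 8.96 and 7.09 in normal arrays. Ischemic 5 and normal 3, the pair of arrays most alike across all genes, bounded a gap of only 0.32. The difference was −2.49 ± 0.60 (SE).

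Slc22a4 (OCTN1), the ergothioneine transporter, is also expressed in blood and immune cells and was another member whose groups overlapped. It was at 4.63, 4.90, 5.89, 6.37 and 7.48 in ischemic arrays, against 7.28, 6.29 and 7.33 in normal arrays. Ischemic 5 was above all 3 normal arrays. The difference was −1.11 ± 0.64 (SE). The mean of 8 endothelial markers, at 6.60, 7.18, 7.91, 8.60 and 9.80 in ischemic and 8.06, 9.51 and 9.34 in normal arrays, put the 5 ischemic arrays in the same order. That order was noticed after the values were seen, and the part of endothelial RNA in the level of Slc22a4 was not tested.

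**Figure D1:**
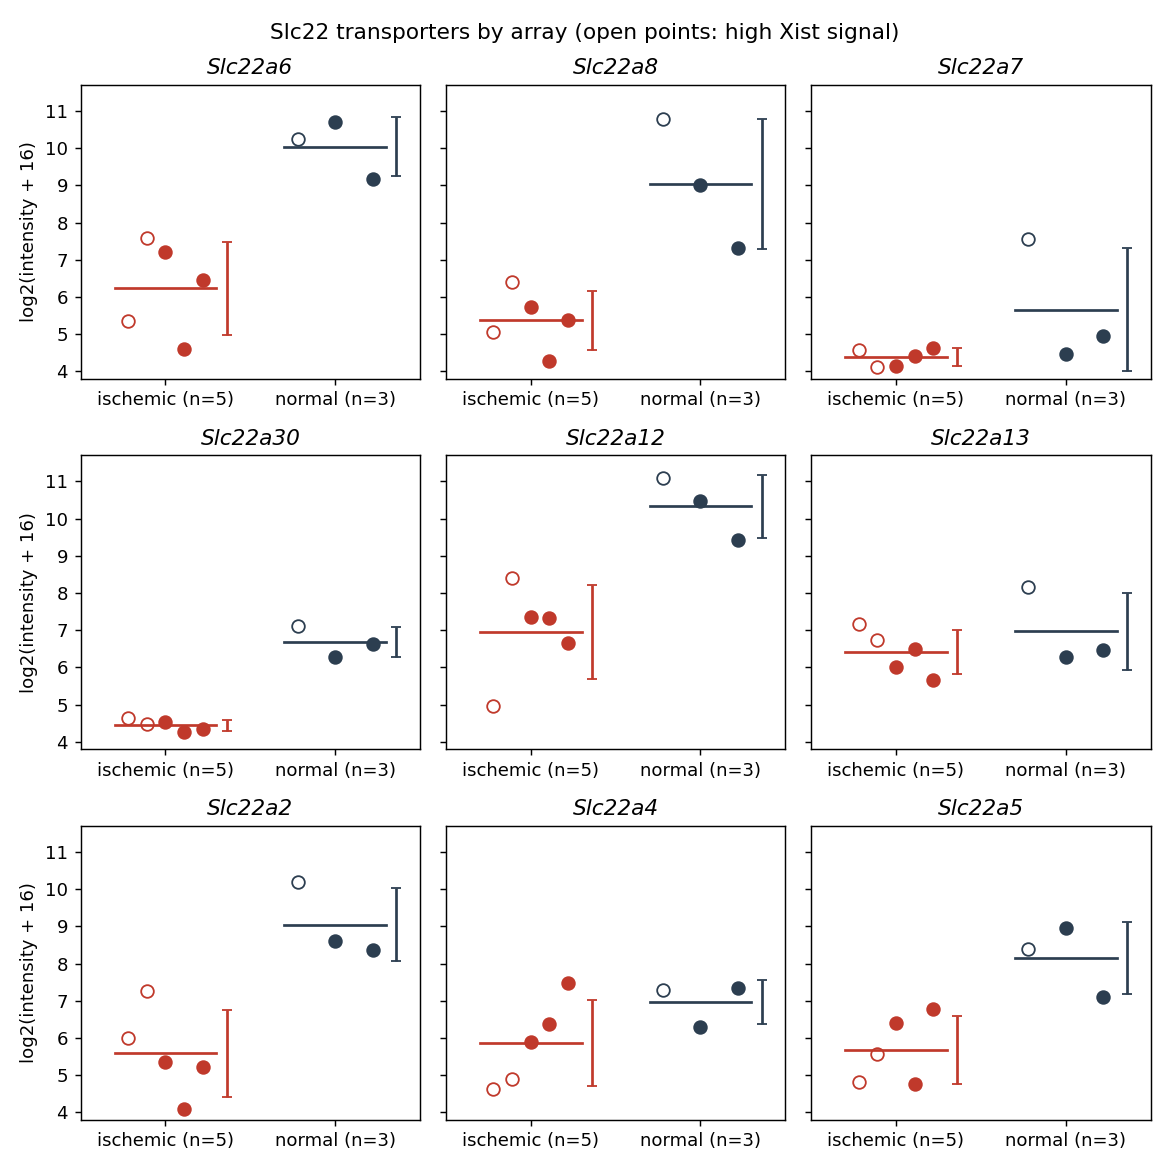
Level of each Slc22 transporter, log2(intensity + 16) after quantile normalization, with 1 point per array for 5 ischemic (left) and 3 normal (right) arrays. Lines are means, bars are 1 SD, and open points are the 3 arrays with high Xist signal. Groups are apart in 6 panels and overlap for Slc22a7, Slc22a13 and Slc22a4.

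Since Xist signal did not follow the labels, differences were also taken within the 5 arrays of low signal (3 ischemic and 2 normal) and within the 3 of high signal (2 ischemic and 1 normal). Slc22a6 was similar in both, at −3.86 in low and −3.78 in high arrays, and Slc22a2 was at −3.59 and −3.55. Slc22a30 was at −2.09 and −2.54, and Slc22a5 at −2.04 and −3.21. Slc22a8 was at −3.03 in low and −5.06 in high arrays, and Slc22a12 at −2.83 and −4.42. Slc22a4 was at −0.23 and −2.52, Slc22a7 at −0.31 and −3.22, and Slc22a13 at −0.31 and −1.20. The values within high arrays rest on normal 1 as their only normal array, and the difference between the 2 sets of arrays was not tested. With Xist class as a covariate the 9 differences had a median of −2.46.

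**Figure D2:**
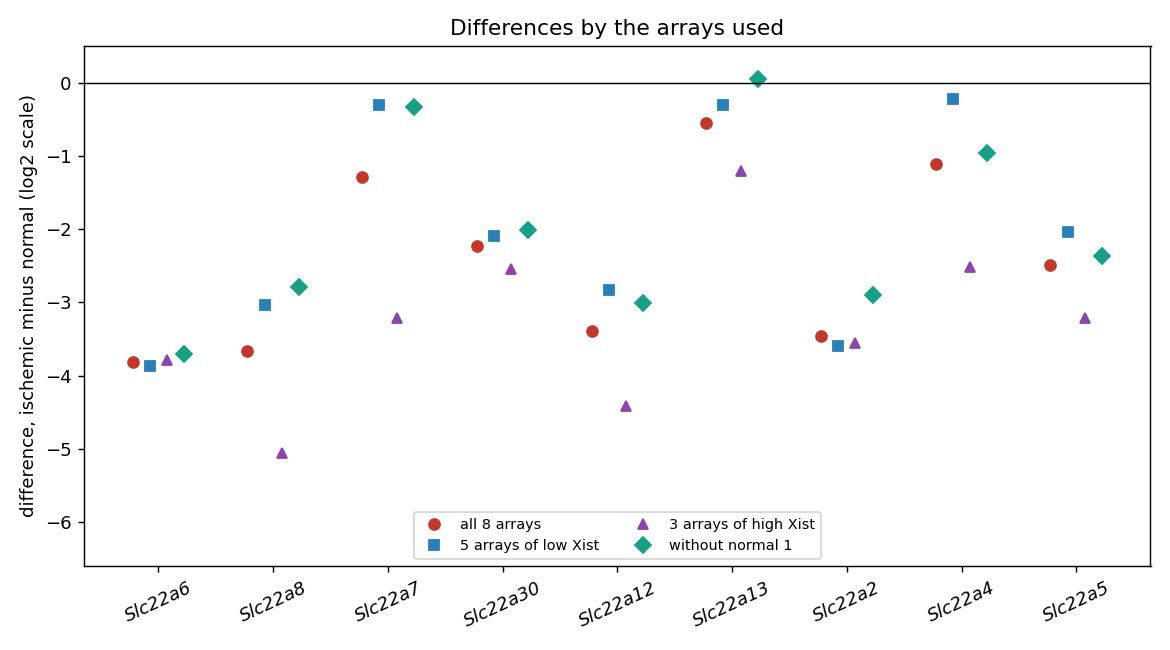
Difference of each Slc22 transporter, ischemic minus normal on the log2 scale, from all 8 arrays, the 5 arrays of low Xist signal, the 3 of high signal, and without normal 1. Slc22a6 lies between −3.86 and −3.71 in all of these, while Slc22a7, Slc22a13 and Slc22a4 are at −0.31, −0.31 and −0.23 in the 5 arrays of low signal.

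Some members had further probe sets, which gave smaller differences. A dimmer probe set of Slc22a6 differed by −1.30 against −3.81, with the groups still apart. The alternative for Slc22a12 differed by −1.13 against −3.39, and that for Slc22a5 by −1.19 against −2.49, both with overlapping groups. A dim probe set of Slc22a8, at 4.15 to 4.67 in ischemic and 4.29 to 5.21 in normal arrays, differed by −0.26. When a gene's probe sets were averaged, Slc22a6 was at −2.56, Slc22a8 at −1.96, Slc22a12 at −2.26 and Slc22a5 at −1.84. One probe set is annotated to both Slc22a30 and its neighbour Slc22a29. It was at 4.27 to 4.66 in ischemic arrays and at 7.48, 4.49 and 4.58 in normal arrays, a profile with a clear signal in normal 1 only, which resembled Slc22a29 and not Slc22a30.

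The 12 other measured Slc22 genes spanned −1.12 to 0.64 with a median of −0.37, and 9 were negative. They are what the choice of the 9 members left of the family, so their differences are in part set by that choice and are no unselected comparison. In the limma fit 0 of the 12 passed an adjusted p of 0.05 (lowest adjusted p = 0.754), and 0 of 12 had an unadjusted p under 0.05, where 7.12% of all genes did. The count past the threshold was 0 in each of 22 alternative settings, although only 6 of the 12 were tested under the brightness filter. Slc22a29 was the 1 gene of the 12 with every ischemic array below every normal array. Its values were 4.36, 4.33, 4.26, 4.33 and 4.30 in ischemic arrays, against 7.12, 4.50 and 4.70 in normal arrays (−1.12 ± 0.54, SE), so it too was clear of the floor in normal 1 only. The median level over all genes (5.93) was reached by 7 of the 9 members and by 4 of the 12, and a change of a dim gene is harder to see on this scale. Probe sets of a gene differed in sign for Slc22a15, at −0.52 and 0.38, and for Slc22a26, at 0.21 and −0.089, and in size for Slc22a18, at −0.39 and −0.99.

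Some neighbours of the members in the genome were also measured. On chromosome 11, Slc22a21 lies between Slc22a5 and Slc22a4. It was at 7.54 in ischemic 1 and 5.40 to 5.59 in the other ischemic arrays, against 6.08, 5.34 and 5.25 in normal arrays, a difference of 0.34 ± 0.52 (SE; limma adjusted p = 0.961) that was −0.066 without ischemic 1. On chromosome 9, Slc22a14 lies beside Slc22a13 and was dim, at 4.54 to 4.88 in ischemic and 4.61 to 5.05 in normal arrays. Slc22a23 and Slc22a22 are no neighbours of the members and lie on chromosomes 13 and 15, which hold none of them. Slc22a23, an orphan family member, differed by −0.86 ± 0.75 and Slc22a22, a prostaglandin transporter, by −0.95 ± 0.62. Neither passed the limma threshold (adjusted p = 0.937 and 0.887). In both, as in Slc22a7 and Slc22a29, normal 1 was the highest array, and without it the differences were −0.046 for Slc22a23, −0.26 for Slc22a22 and −0.28 for Slc22a29. The remaining genes of the 12 were Slc22a15, Slc22a16, Slc22a17, Slc22a18, Slc22a19, Slc22a26 and Slc22a27, at −0.62 to 0.64. The upper end is Slc22a16, which was at −0.081 without ischemic 1.

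**Figure D3:**
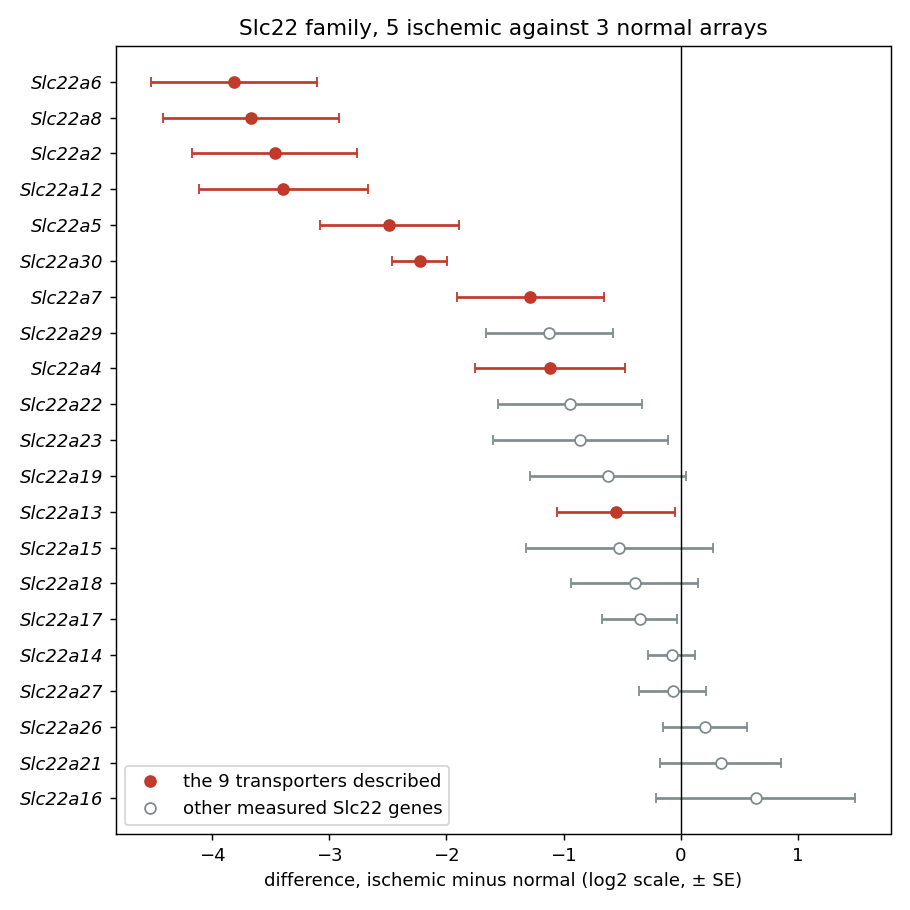
Difference of 21 Slc22 genes, ischemic minus normal on the log2 scale, with the standard error of the limma fit. Filled points are the 9 transporters described and open points the other 12, which lie between −1.12 and 0.64.

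The transporters that work with the members were described next, from a list of 21 genes of which 19 were measured. None of the 19 passed limma over all genes (0 of 19), while 10 had an unadjusted p under 0.05 with a lower mean and 1 with a higher mean, where 5.01% and 2.11% of all genes did. The list was written with earlier results of these data known, so nothing is read from this count. Slc47a1 (MATE1), which exports organic cations into the urine, was at 4.35, 6.30, 7.06, 4.79 and 6.24 in ischemic arrays, against 10.01, 9.55 and 8.68 in normal arrays (−3.66 ± 0.64, SE; limma adjusted p = 0.139). Abcc2 (MRP2), an apical efflux pump of anion conjugates, differed by −3.51 ± 0.67 (adjusted p = 0.149). Slc17a3, an apical anion and urate transporter, differed by −3.13 ± 0.46 (adjusted p = 0.124), and Slco1a1, an organic anion transporter, by −2.71 ± 0.62 (adjusted p = 0.192). Slc13a3, the dicarboxylate transporter that feeds the exchange by Slc22a6 and Slc22a8, differed by −2.08 ± 0.57 (adjusted p = 0.302). The basolateral and widely expressed pump Abcc3 ran the other way, at 8.48, 8.99, 10.19, 9.72 and 8.81 in ischemic arrays, against 8.33, 8.01 and 8.29 in normal arrays, and did not pass (1.03 ± 0.39; adjusted p = 0.600). The median of the 19 was −0.82.

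Of 11 urate handling genes, 0 passed limma over all genes, and the median was −1.92. Pdzk1, the brush border scaffold that binds Slc22a12, was at 5.44, 7.19, 7.09, 4.98 and 6.43 in ischemic arrays, against 11.09, 9.40 and 8.42 in normal arrays (−3.41 ± 0.71, SE; limma adjusted p = 0.159). Slc16a9 differed by −3.21 ± 0.80 (adjusted p = 0.224) and Slc5a12, a lactate transporter, by −3.08 ± 0.77 (adjusted p = 0.225). Slc2a9, the urate exit route that macrophages and other cells also express, differed by 0.29 ± 0.50 (adjusted p = 0.964). The 10 measured genes of carnitine synthesis and use had a median of −0.50 and 0 past the threshold. Cpt1a, which forms acylcarnitines at the mitochondrion, differed by −0.99 ± 0.38 (adjusted p = 0.600) and Cpt2 by −0.99 ± 0.54 (adjusted p = 0.826, and 0.027 in the 5 arrays of low Xist signal), both less than Slc22a5 in the same arrays, although that comparison was not tested.

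Among 12 measured regulators, which include genes described as controlling Slc22 transcription, 0 passed limma over all genes and the median was −0.078. Hnf4a, the nuclear receptor of tubule and liver cells, was at 6.30, 7.52, 7.28, 5.27 and 6.76 in ischemic arrays, against 10.52, 9.57 and 8.59 in normal arrays. The groups did not overlap (−2.93 ± 0.59, SE; limma adjusted p = 0.150), and ischemic 4 was the lowest, as for Slc22a6. Nr1h4 (FXR) differed by −1.53 ± 0.40 (adjusted p = 0.253). Ppara differed by −2.35 ± 0.95 (adjusted p = 0.643), with 1 normal array at 5.10 inside the ischemic range. Runx1 differed by 0.89 ± 0.37 (adjusted p = 0.673) and Cebpb by 0.59 ± 0.33 (adjusted p = 0.846).

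Markers of tubule cells moved with the members. All 19 measured proximal tubule markers were negative, with a median of −3.08, and 0 passed limma over all genes. Lrp2 (megalin), the endocytic receptor of the brush border, differed by −3.87 ± 0.71 (SE; limma adjusted p = 0.140), and Aqp1, a water channel that endothelial cells also express, by −0.51 ± 0.45 (adjusted p = 0.937). The mean level of the 19 was 6.48 to 8.01 in ischemic and 9.04 to 10.59 in normal arrays. The mean level of the 9 members was 5.24, 6.16, 5.85, 5.18 and 5.84 in ischemic arrays, against 8.98, 7.90 and 7.41 in normal arrays. The distance of the members' mean to the marker mean, which has no absolute meaning, was −1.91 to −1.30 in ischemic and −2.11 to −1.61 in normal arrays, and these ranges overlap. Slc22a6 taken alone was −1.89 to −0.44 from the marker mean in ischemic and −0.34 to 0.70 in normal arrays. Slc22a13 taken alone was −1.74 to 0.30 from it in ischemic and −3.72 to −2.43 in normal arrays. Slc22a6 and Slc22a13 are the members of largest and smallest difference, so their opposite directions follow from that choice. The distance was not taken for other members alone, and nothing is read from it. The 11 distal nephron and collecting duct markers had a median of −2.17 and a mean level of 6.04 to 7.15 in ischemic and 8.03 to 8.50 in normal arrays. The part of these tubule markers in the levels of the members was not tested.

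Among markers of other cell types that the sort could hold, most of those of macrophages, fibroblasts and lymphocytes had positive differences. Macrophage markers had a mean level of 9.48 to 10.41 in ischemic and 8.95 to 9.16 in normal arrays, with all 12 differences positive and 0 past limma over all genes. Mrc1, a mannose receptor of macrophages, differed by 2.08 ± 0.31 (SE; limma adjusted p = 0.124). Fibroblast and pericyte markers were at 6.64 to 7.88 in ischemic and 6.36 to 7.12 in normal arrays, with 10 of 12 differences positive (median 0.44). Endothelial markers were at 6.60 to 9.80 in ischemic and 8.06 to 9.51 in normal arrays, with 7 of 8 differences negative. Podocyte markers were at 5.63 to 7.43 in ischemic and 6.51 to 7.35 in normal arrays, and T and B cell markers at 4.81 to 8.54 in ischemic and 5.04 to 7.19 in normal arrays, with 6 of 7 differences positive (median 0.40). The T and B cell median was −0.14 without ischemic 1 and −0.019 in the arrays of low Xist signal, and positive in the other settings. The fibroblast, endothelial, podocyte and lymphocyte lists each had 0 genes past the threshold, and their mean levels overlapped between groups. The part of these cell types in the levels of the members was not tested.

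**Figure D4:**
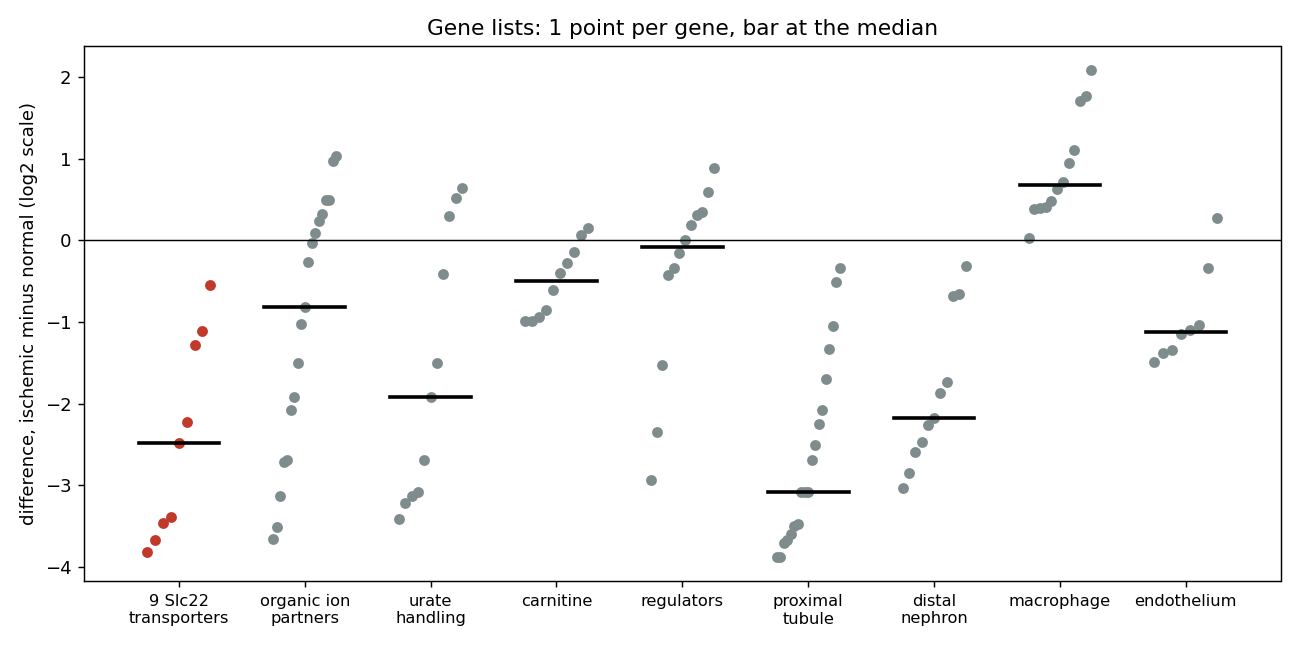
Difference of each gene, ischemic minus normal on the log2 scale, for the 9 Slc22 transporters and 8 gene lists, with 1 point per gene and a bar at the median. The medians of the transporters (−2.49), the proximal tubule (−3.08) and the distal nephron (−2.17) lie well below 0, and that of the macrophage list (0.67) lies above it.

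The genes with the profile most like a member were found by the root mean square difference over the 8 arrays, after each gene was centred on its own mean, among 9086 genes outside the family at or above the median level. For Slc22a6 they were Dpep1, a brush border dipeptidase, at 0.30 log2 units, Slc4a4, the basolateral bicarbonate transporter, at 0.31, and Lrrc19 at 0.33. Dpep1 was at 5.50, 7.89, 7.24, 4.59 and 6.05 in ischemic arrays, against 9.70, 10.65 and 8.63 in normal arrays, which tracks Slc22a6 array by array. For Slc22a8 they were Akr1c21 (0.31), Rdh16f2 (0.31) and Pdzk1 (0.36), and for Slc22a5 they were Zfp697 (0.27), Gng12 (0.35) and Gpam (0.35). For Slc22a30 they were Wfdc15b (0.24), Car2, a carbonic anhydrase, (0.34) and Defb1 (0.37). Among the 20 other family members, a far smaller pool, the nearest profile to Slc22a6 was Slc22a8 at 0.77, and the nearest to Slc22a8 was Slc22a2 at 0.64. These likenesses were picked from many genes and share the group difference, so they are descriptions of the 8 arrays only.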

How the data were processed

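The authors deposited 1 table of probe set intensity values on a linear scale for 8 arrays of an Affymetrix mouse type, per the series' design text. RNA was extracted with miRNeasy, amplified by WT-Ovation Pico and labelled with biotin, per the labels' protocols. How the intensities were summarised and scaled is not given in the sources used here. The number of arrays limits the precision.

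Values were taken as log2(intensity + 16) and quantile normalized over 45101 probe sets. Of these, 34945 had 1 gene symbol and 932 several, in the annotation given with the series. A gene was its 1-symbol probe set with the highest mean, for 18193 genes. Dim genes were kept. All 9 members matched a RefSeq gene ID (GRCm38.p6). Groups came from the titles. They were compared with limma 3.58.1 in R 4.3.3 (lmFit, eBayes), with p-values adjusted over all 18193 genes (Benjamini-Hochberg) and called under 0.05, and the step was tested on simulated data. Members and lists were chosen with earlier results of these data known. Genes named were all Slc22 genes, the nearest profiles and, from each of 15 lists, those among its 4 of largest difference, its 2 of highest level or its defining markers. The high Xist class was split at the largest gap in Xist level. Other promoter motifs that were searched, and some genes of the lists, are not reported here. Figures used matplotlib 3.10.9.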

Additional observations from a re-analysis of the deposited data

Results flagged for a closer look

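In a group of 5 arrays, 1 array was marked where its gap to the nearest other array, divided by the range of the group, was above Dixon's critical value of 0.71. Chance marks about 1 in 20 groups, and 10 of the 108 genes examined were marked. Among Slc22 genes, ischemic 1 was far above the other ischemic arrays in Slc22a21 (ratio 0.908, 7.54 against 5.40 to 5.59), Slc22a16 (0.814, 9.44 against 5.48 to 6.22) and Slc22a23 (0.790, 8.18 against 5.61 to 6.15). Ischemic 4 was above the others in Slc22a19 (0.736, 6.12 against 4.14 to 4.67), and ischemic 3 was below them in Slc22a14 (0.815, 4.54 against 4.81 to 4.88). None of the 9 transporters described was marked. Outside the family, ischemic 1 was low in Cpt1a (0.781, 7.55 against 8.72 to 9.05) and high in Slc5a10 (0.736, 9.85 against 6.10 to 7.09) and Wt1 (0.805, 6.83 against 4.10 to 4.63). Ischemic 4 was low in Slc2a9 (0.712, 6.47 against 8.12 to 8.79), and ischemic 2 was high in Wfdc15b (0.729, 6.37 against 5.69 to 5.88).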

How the results depend on the processing

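Over 22 alternative settings the 9 members gave 196 differences, of which 195 were negative and 1 positive (Slc22a13 without normal 1, 0.044). The median of the members was −3.68 with a pseudocount of 1, −1.72 with 64, −3.39 over the 7 members at or above the 40th percentile of brightness, and −3.22 in the 3 arrays of high Xist signal. With 1 array left out it ran from −3.01 to −2.26. The count of genes past the limma threshold, 0 as reported, reached 174 when ribosomal protein genes set the centre of each array (a scaling that moved the median of all genes to −0.14), 31 with an intensity trend (Slc22a6 and Slc22a30 among them), 15 with the brightness filter, 5 with array weights, 2 with the mean of all probe sets, and 1 each with a pseudocount of 1 and with Xist class as a covariate. With 1 array left out it ran from 0 to 112, and the 112 came without normal 3. The causes of these shifts were not tested. Other Slc22 genes past the threshold numbered 0 in each setting, with 6 tested under the brightness filter. No gene whose sign changed passed in either direction. Slc22a27 was at 0.0013 with median centring, Slc22a26 at −0.018 and Slc2a9 at −0.039 with ribosomal centring, and Havcr1 at 0.45 with averaged probe sets, 1.09 with the most variable one and 0.032 in low Xist arrays. In low Xist arrays Slc22a15 was at 0.16, Slc22a19 at 0.31 and Cpt2 at 0.027. With 1 array left out, the differences ran from −0.081 to 0.91 for Slc22a16, −0.066 to 0.60 for Slc22a21, −0.23 to 0.047 for Slc22a27, −0.77 to 0.046 for Slc22a18, −1.20 to 0.14 for Slc22a19, −0.20 to 0.022 for Slc22a14 and −0.035 to 0.47 for Slc22a26. Replicate numbers are shared by the titles of both groups, but same-numbered arrays did not deviate together (correlations of 0.16, −0.088 and 0.10), so they were not read as pairs. With the replicate number as a block 0 genes passed and the median of the members was −2.56, while Slc22a27 was at 0.12.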

Other observations

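Genes that mark segments of the proximal tubule gave values that the report does not use. Of 7 genes of the last segment (S3), Slc7a13, an amino acid transporter, was at 4.34, 5.38, 6.19, 4.09 and 5.76 in ischemic arrays, against 8.34, 8.35 and 8.62 in normal arrays (−3.29 ± 0.49, SE; limma adjusted p = 0.124). Of 6 genes of the first segment (S1), Slc5a2, the glucose transporter SGLT2, was at 7.69, 8.47, 8.39, 9.49 and 8.09 in ischemic arrays, against 10.92, 10.33 and 9.14 in normal arrays (−1.70 ± 0.49, SE; adjusted p = 0.345). The S3 list had a median of −0.86 and the S1 list a median of −1.52, each with 0 genes past the threshold. Slc7a13 had the largest difference of the S3 list, while that of the S1 list was Slc5a12 (−3.08), not Slc5a2. Each list had 1 gene with a positive difference.

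Genes of tubule injury did not separate the groups as a list (median −0.063 over 8 measured genes, 0 past the threshold). Havcr1 (KIM-1), a marker of injured proximal tubule, was at 7.81, 7.45, 7.78, 8.46 and 7.28 in ischemic arrays, against 8.19, 8.12 and 7.50 in normal arrays (−0.18 ± 0.32, SE; limma adjusted p = 0.965). Its sign depended on the probe set, with 1.09 for the most variable one. Krt8, a keratin of simple epithelia, had every ischemic array below every normal array (−1.39 ± 0.45, SE; adjusted p = 0.442).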
